A study of Homo sapiens with 9 samples.

Results

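The BCL2 family sets whether mitochondria release the proteins that start apoptosis. Here 10 of its genes were followed in HaCaT keratinocytes with and without a transfected actin construct. The genes were chosen by name as members of the family, not by how they behaved on the arrays: BCL2, BCL2L1, BCL2L2, MCL1, BAX, BAK1, BID, BIK, BCL2L11 and PMAIP1. They were read by 32 of the 54613 probe sets other than controls, and they are 10 of the 19775 genes that a probe set of a single gene symbol represented. A further probe set that lists BCL2L2 together with other genes was not assigned.

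HaCaT cells are human keratinocytes that became immortal spontaneously in culture. The study asked how actin in the nucleus alters gene expression, and it measured RNA on 9 arrays: 3 of the unmodified parental line, 3 of WT-actin cells and 3 of NLS-actin cells. WT-actin cells stably expressed actin fused to EGFP, and NLS-actin cells an EGFP-actin fusion with a nuclear localization sequence. Both were selected with G418 after transfection, so that both carry EGFP and a resistance gene, which the parental line lacks. There was 1 stable line per construct, and what the construct did and how the lines differ otherwise cannot be told apart. The methods call the arrays experimental replicates and do not state that they came from separate cultures. The p values therefore measure the spread between these arrays, which may be technical.

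In the family, guardians such as BCL2, BCL-XL (BCL2L1), BCL-W (BCL2L2) and MCL1 hold the effectors BAX and BAK1 in check at the outer mitochondrial membrane. The BH3-only proteins BID, BIK, BIM (BCL2L11) and NOXA (PMAIP1) neutralize guardians, and some of them also activate effectors directly. In epidermal keratinocytes BCL2 is best known from the basal layer, and MCL1 is a short-lived protein.

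The promoters of BCL2 and BID are shown because the results below turn on these genes. Each is the RefSeq window of the GRCh38.p14 build from 250 bases before to 50 bases after a start site, 5′ to 3′ on the gene's strand, at chr18:63319720-63320019 (minus strand) for BCL2 and chr22:17774420-17774719 (minus strand) for BID. Capitals mark GC boxes (GGGCGG on either strand), CCAAT boxes (CCAAT on either strand) and CArG boxes, the motif that serum response factor binds.
BCL2: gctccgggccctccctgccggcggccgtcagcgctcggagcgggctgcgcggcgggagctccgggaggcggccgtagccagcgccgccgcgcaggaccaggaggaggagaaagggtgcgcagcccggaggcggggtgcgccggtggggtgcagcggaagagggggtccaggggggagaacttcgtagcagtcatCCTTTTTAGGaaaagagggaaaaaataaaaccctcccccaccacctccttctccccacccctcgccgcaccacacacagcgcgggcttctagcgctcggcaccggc
BID: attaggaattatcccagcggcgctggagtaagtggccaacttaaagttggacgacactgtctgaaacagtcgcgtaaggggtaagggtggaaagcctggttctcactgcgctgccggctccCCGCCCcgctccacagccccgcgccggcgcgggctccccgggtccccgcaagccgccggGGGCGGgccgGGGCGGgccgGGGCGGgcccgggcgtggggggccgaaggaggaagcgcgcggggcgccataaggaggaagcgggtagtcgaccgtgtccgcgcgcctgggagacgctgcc

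The BCL2 window held 1 CArG box, 56 to 47 bases before the start site, and no GC box, at a GC content of 70.7%. The BID window printed held 4 GC boxes and no CArG box, at a GC content of 71.7%. The reference table held 12 windows for 7 of the 10 genes, 5 of them of BID at different start sites. The 5 BID windows held 0 to 4 GC boxes, at GC contents of 48.7 to 78.0%. BCL2 was the only 1 of these 7 genes with a CArG box, which 1.29% of all 35116 promoter windows held. GC boxes were present in 9 of the 12 windows of the members and in 45.0% of all windows. A match of letters is a description of the window and not a binding site.

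The signals are MAS5 intensities on a linear scale, which the authors scaled so that every array had nearly the same trimmed mean, between 500.04 and 500.06. The median signal was 29.7 to 43.3, and 25.1 to 31.1% of probe sets lay below a signal of 10. The 5 markers of basal keratinocytes measured lay at or above the 91.8 percentile of mean level, and 11 of 14 markers of fibroblasts, leukocytes, melanocytes and endothelium lay below the median level. Their summed signal was 639 to 1221 in parental, 393 to 1330 in WT-actin and 679 to 1590 in NLS-actin arrays, so the lines overlapped in this sum. Of the 14 markers, CD14 of monocytes alone was called in a comparison at an adjusted p under 0.05. It read 35.6 to 119 in parental, 13.8 to 25.3 in WT-actin and 84.9 to 140 in NLS-actin arrays. It was higher in NLS-actin than in WT-actin cells by a log2 fold change of 2.53 (SE 0.49, adjusted p = 0.0484 in limma), and its part in the results below was not tested. The arrays parental replicate 2, replicate 1 of WT-actin and replicate 2 of NLS-actin cells stood apart: they held the highest of their line's signals for 40.2, 41.2 and 44.0% of genes, against 26.4 to 32.4% for the other arrays. The log2 ratio of the ACTB control signal at the 3′ end to that at the 5′ end is a measure of RNA quality. In each of these arrays it was the highest of the line, at 2.99, 3.90 and 3.68. Both actin lines also express actin from a construct, and its part in this ratio was not tested. Results were therefore also computed without these 3 arrays and with this ratio in the fit.

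The 10 genes lay at very different levels on the arrays. No detection calls were used, so a signal does not show that a gene was detected. On the brightest probe set of each gene, 9 genes lay between the 73.0 and 95.6 percentiles of mean level, with MCL1 at the top and BIK at the bottom of that range. BCL2, the founding guardian, was the exception, at the 48.7 percentile on its brightest probe set and at the 19.8 percentile on its dimmest. These percentiles describe probe sets, whose affinities differ, and they are not an order of transcript amounts. Of the 32 probe sets, 24 lay above the median of all probe sets and 8 below it. The pooled SD within lines had a median of 0.31 on the log2 scale in the first set and of 1.09 in the second, where it ranged from 0.69 to 1.47. All probe sets of the arrays showed the same dependence, with medians of 0.31 above and 1.35 below the median level.

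**Figure D1:**
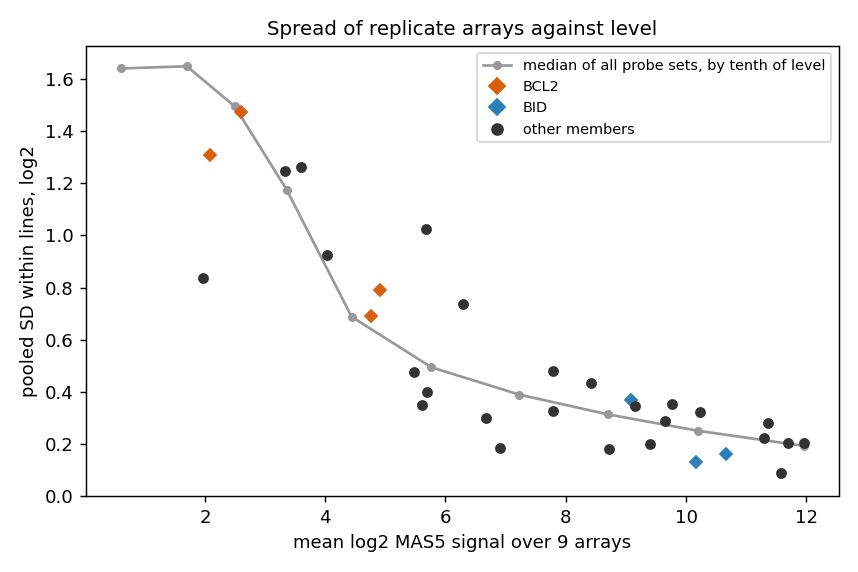
Pooled SD of log2 signal within lines (y axis) against mean log2 signal over 9 arrays (x axis) for the 32 probe sets of the family. The grey line is the median of all 54613 probe sets in each of 10 bands of level; the 4 BCL2 probe sets lie at the dim end, with SDs of at least 0.69, and the BID probe sets at the bright end.

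No member of the family differed between lines at an adjusted p under 0.05 in limma, which was fitted to all 9 arrays and adjusted over all probe sets. Of the 32 probe sets, 0 passed in NLS-actin against parental cells, where 0.0769% of all probe sets did, 0 in WT-actin against parental cells (0.103% of all) and 0 in NLS-actin against WT-actin cells (0.364% of all). At an unadjusted p under 0.05 in limma the counts were 4 (6.36% of all), 0 (5.98%) and 4 (7.85%). Tukey's test, which the statistics section of the study names, gave 3 (3.36%), 0 (3.08%) and 2 (4.17%) at an unadjusted p under 0.05. With 4 of 32 probe sets being 12.5%, these shares stand on few probe sets, several of which read the same gene.

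The differences of the members were small in size. The median size of the log2 fold change over the 10 brightest probe sets was 0.14 in NLS-actin against parental, 0.18 in WT-actin against parental and 0.11 in NLS-actin against WT-actin cells. Over all genes, many of them dimmer, it was 0.27, 0.28 and 0.30. Signed medians lay below 0 in both actin lines, and these comparisons share the parental arrays. In NLS-actin cells the median was -0.11 (all genes -0.0050), with 7 of 10 genes negative and 3 positive (49.4% of all genes positive). In WT-actin cells it was -0.11 (all genes -0.060), with 7 of 10 negative and 3 positive (43.7% of all genes positive). The sign counts rest on 10 genes only. Between the actin lines the median was 0.016, against 0.033 over all genes, with 6 of 10 genes positive (53.4% of all genes).

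**Figure D2:**
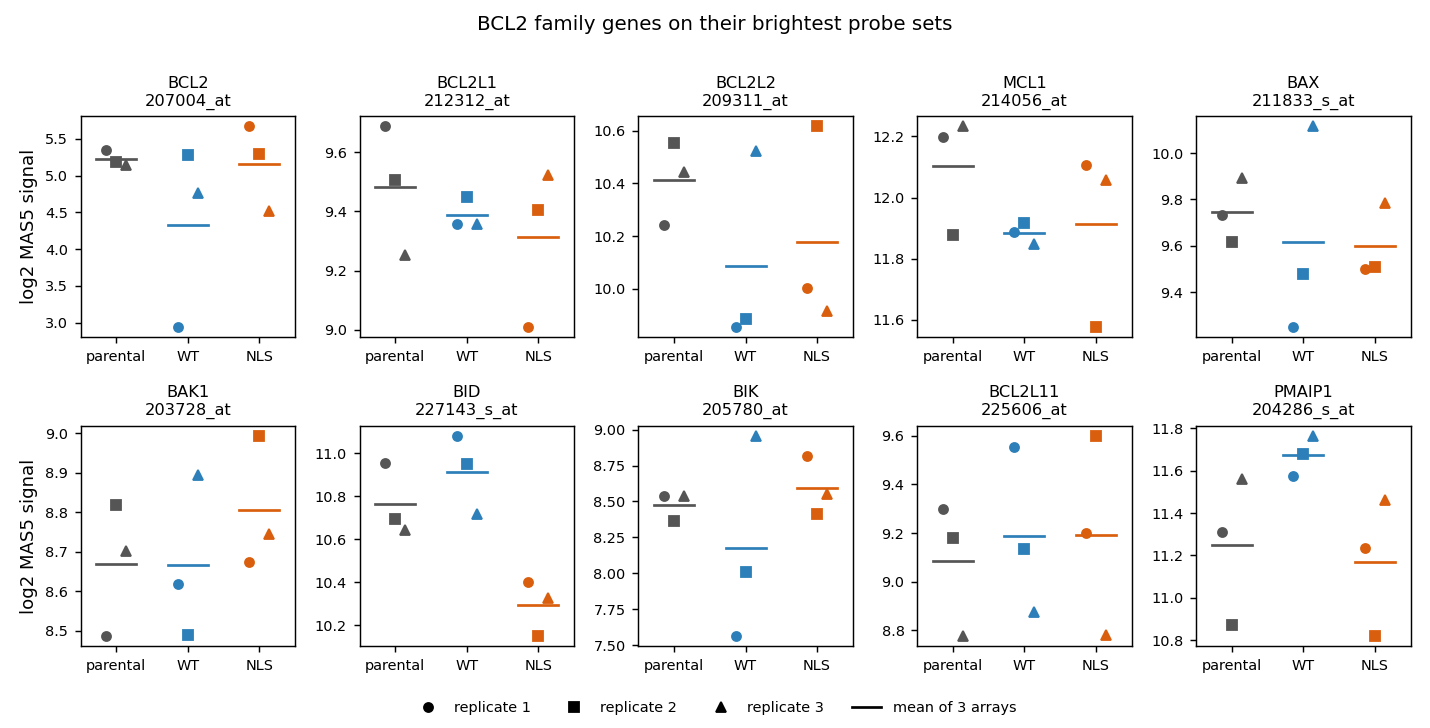
Log2 MAS5 signal (y axis, a separate scale in each panel) of the 10 genes on their brightest probe sets in parental, WT-actin (WT) and NLS-actin (NLS) arrays; symbols are replicates and lines are means of 3 arrays. BID is the only panel in which the 3 NLS-actin arrays lie below all other arrays, and PMAIP1 the only one in which the 3 WT-actin arrays lie above all others.

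**Figure D3:**
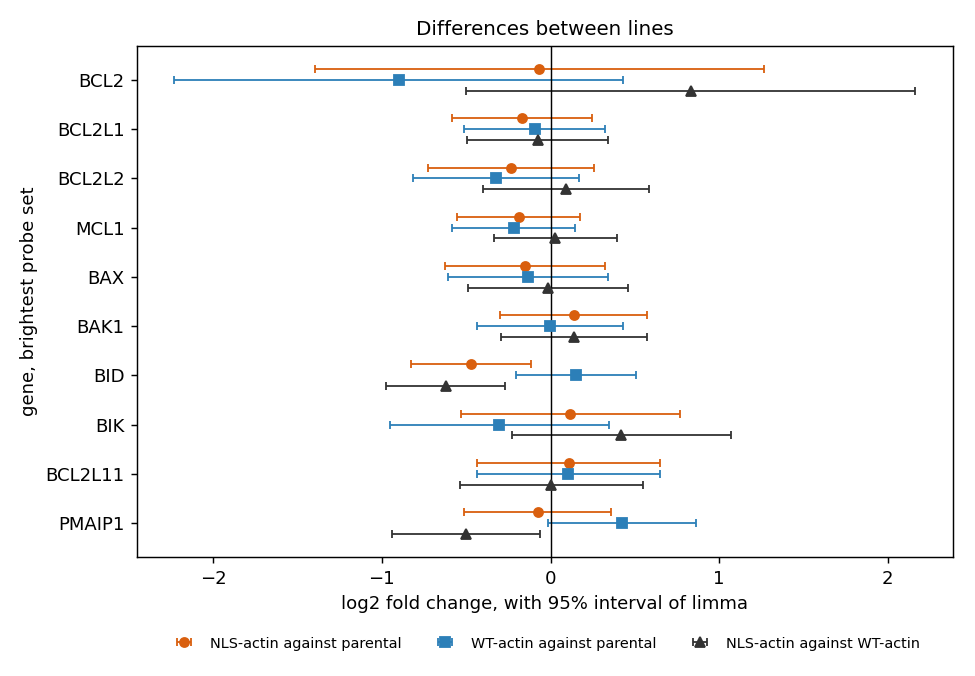
Log2 fold change (x axis) with its 95% interval from limma for the 10 genes on their brightest probe sets (y axis), in 3 comparisons. The intervals that leave out 0 before adjustment are those of BID in both comparisons of NLS-actin cells and of PMAIP1 in NLS-actin against WT-actin cells; BCL2 has the widest intervals.

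BCL2 was named by the study from these arrays, so a test on them is not independent evidence for it. The study also measured BCL2 by qRT-PCR, a separate measure that was not re-examined here. The 4 probe sets of BCL2 gave different pictures. The brightest, 207004_at, read 40.8, 36.4 and 35.3 in parental, 7.66, 38.7 and 27.2 in WT-actin and 50.8, 39.2 and 22.9 in NLS-actin replicates 1 to 3. The lines overlapped, and the low WT-actin value was that of replicate 1, which stands apart. NLS-actin against parental cells gave a log2 fold change of -0.067 (SE 0.62, adjusted p = 0.993 in limma), with a 95% interval from -1.40 to 1.26, and 0.83 (SE 0.62, adjusted p = 0.831) against WT-actin cells.

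The probe set 203685_at read 42.0, 15.3 and 22.3 in parental, 17.0, 10.8 and 32.3 in WT-actin and 66.7, 41.6 and 33.5 in NLS-actin arrays. Every NLS-actin value lay above every WT-actin value, and parental replicate 1 lay above 2 NLS-actin arrays. Against WT-actin cells the log2 fold change was 1.33 (SE 0.59, adjusted p = 0.618), the only 1 of the 32 probe sets in this comparison with a limma p under 0.05 before adjustment and more than a 2-fold difference, where 4.67% of all probe sets passed. No member passed these limits without parental replicate 3, WT-actin replicate 1, NLS-actin replicate 1 or NLS-actin replicate 2. For these fits no share over all probe sets is given. Against the parental line the log2 fold change was 0.90 (SE 0.59, adjusted p = 0.862).

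The dimmest BCL2 probe set, 203684_s_at, read 1.58, 1.91 and 2.37 in parental, 1.05, 16.2 and 1.29 in WT-actin and 20.5, 11.8 and 11.9 in NLS-actin arrays. All NLS-actin values lay above the parental ones, while WT-actin replicate 2 lay within the NLS-actin range. Relative to the parental line this was a log2 fold change of 2.89 (SE 1.10, adjusted p = 0.693), a 7.39-fold higher signal with a 95% interval from 0.51 to 5.26 on the log2 scale. The signals are near the floor of the arrays, and after adding 8.08 to every signal the value was 1.16; without the 3 arrays that stand apart it was 3.01. It was likewise the only 1 of the 32 past these limits in NLS-actin against parental cells, where 3.60% of all probe sets passed. Without parental replicate 1 or without NLS-actin replicate 1 no member passed these limits. Without NLS-actin replicate 2 there were 2, and Tukey's test gave none. No share over all probe sets is given for these fits, so these counts describe the members only.

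The fourth, 207005_s_at, went the other way in its mean, with 5.69, 1.99 and 15.0 in parental, 17.6, 4.11 and 15.8 in WT-actin and 1.41, 2.66 and 14.5 in NLS-actin arrays. The 3 lines overlapped throughout, and the log2 fold change against the parental line was -0.55 (SE 1.11, adjusted p = 0.963). The mean of all 4 probe sets gave 0.79 (adjusted p = 0.861).

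**Figure D4:**
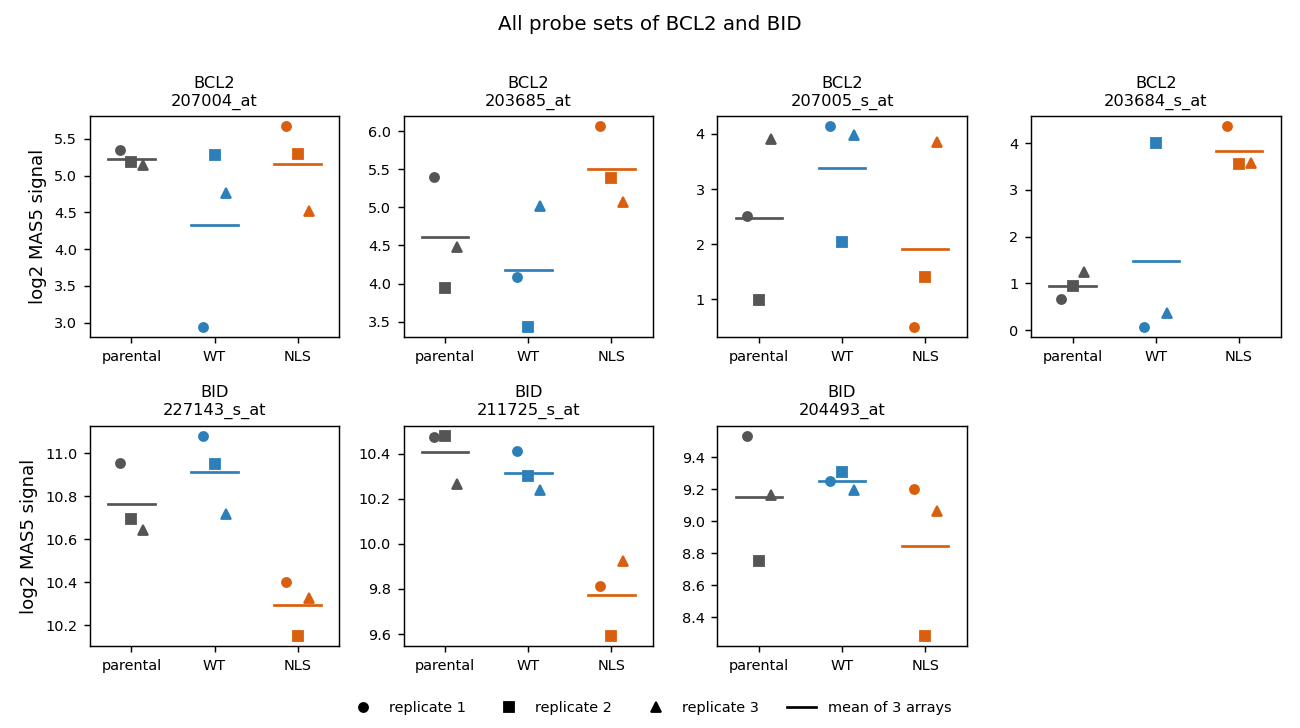
Log2 MAS5 signal (y axis, a separate scale in each panel) of the 4 BCL2 probe sets (top) and the 3 BID probe sets (bottom) in parental, WT-actin (WT) and NLS-actin (NLS) arrays; symbols are replicates and lines are means. The BCL2 panels differ in which line is high, while in the BID panels the NLS-actin mean is the lowest of the 3.

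BCL2L1, whose long splice form BCL-XL is a guardian, was read by 4 probe sets. On 212312_at it gave 824, 727 and 611 in parental, 656, 699 and 656 in WT-actin and 515, 677 and 736 in NLS-actin arrays. The lines overlapped, and the log2 fold change in NLS-actin against parental cells was -0.17 (95% interval -0.59 to 0.25). The other 3 probe sets were negative as well, from -0.21 to -1.07, with no p under 0.05.

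BCL2L2, which encodes BCL-W, read 1213, 1502 and 1391 in parental, 926, 947 and 1470 in WT-actin and 1026, 1569 and 966 in NLS-actin arrays on 209311_at. A pair of arrays in each actin line lay below all parental arrays while the third lay among or above them. This gave a log2 fold change of -0.23 (SE 0.23) in NLS-actin and -0.33 (SE 0.23) in WT-actin cells, each against parental cells. A dim second probe set, 1555140_a_at, had its 3 NLS-actin values above the 3 of WT-actin cells at a log2 fold change of 1.18 (SE 0.75, adjusted p = 0.782).

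MCL1 was read by 6 probe sets, of which 4 lay at or above the 92.2 percentile. On 214056_at the signal was 4694, 3766 and 4813 in parental, 3792, 3864 and 3687 in WT-actin and 4412, 3053 and 4259 in NLS-actin arrays. The lines overlapped, and the log2 fold change against the parental line was -0.19 (95% interval -0.55 to 0.17) in NLS-actin and -0.22 (-0.58 to 0.14) in WT-actin cells. On 214057_at, the most even of the 32 probe sets with a pooled SD of 0.091, the values were -0.036 (-0.33 to 0.26) and -0.084 (-0.38 to 0.21). The intervals of this probe set leave out a 2-fold difference in either direction. On 227175_at every WT-actin array lay below every parental array, with a log2 fold change of -0.70 (SE 0.41, adjusted p = 0.842).

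The effectors showed small values. BAX, which forms pores in the outer mitochondrial membrane, read 851, 784 and 952 in parental, 609, 714 and 1109 in WT-actin and 724, 729 and 881 in NLS-actin arrays on 211833_s_at. The log2 fold change was -0.15 (95% interval -0.62 to 0.32) in NLS-actin and -0.13 (-0.61 to 0.34) in WT-actin cells, both against parental cells. WT-actin replicate 3 was the highest of all 9 arrays and WT-actin replicate 1 the lowest, and on the second probe set, 208478_s_at, WT-actin replicate 3 was again the highest, with 378 against 153 and 146.

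BAK1, the other effector, was read by a single probe set, with 358, 451 and 416 in parental, 393, 359 and 476 in WT-actin and 409, 510 and 429 in NLS-actin arrays. The lines overlapped. Compared with the parental line, the log2 fold change was 0.14 (95% interval -0.30 to 0.57) in NLS-actin cells and -0.0010 (-0.43 to 0.43) in WT-actin cells.

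Among the BH3-only genes BID had the lowest p values of the family. BID is cut by caspase-8 and carries the death receptor signal to mitochondria. On its brightest probe set, 227143_s_at, the signal was 1985, 1658 and 1597 in parental, 2167, 1975 and 1681 in WT-actin and 1353, 1134 and 1286 in NLS-actin arrays. Every NLS-actin array lay below every array of the other lines. BID stood at a log2 fold change of -0.47 against the parental line (SE 0.16, 95% interval -0.83 to -0.12, adjusted p = 0.618) and -0.62 against WT-actin cells (SE 0.16, adjusted p = 0.198).

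The second, 211725_s_at, read 1424, 1428 and 1231 in parental, 1361, 1260 and 1207 in WT-actin and 899, 770 and 972 in NLS-actin arrays. The NLS-actin arrays again lay below all others, with a log2 fold change of -0.63 against the parental line (SE 0.16, 95% interval -0.98 to -0.28, adjusted p = 0.340) and -0.54 against WT-actin cells (SE 0.16, adjusted p = 0.280). On the third, 204493_at, the lines overlapped, with 741, 430 and 573 in parental, 610, 634 and 585 in WT-actin and 589, 311 and 534 in NLS-actin arrays. Its log2 fold change against the parental line was -0.30 (SE 0.26, adjusted p = 0.897).

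On the first pair of BID probe sets the direction did not rest on the arrays that stand apart. Without those 3 arrays the values against the parental line were -0.43 on 227143_s_at and -0.50 on 211725_s_at, and with the ACTB ratio in the fit they were -0.50 and -0.64. On 204493_at the value was -0.017 without NLS-actin replicate 2, which stands apart. In all 3 probe sets each NLS-actin array lay below the parental array of the same replicate number. With the replicate number as a block, fitted to these lines alone, whose arrays the numbers were taken to pair, the adjusted p was 0.156 on 227143_s_at and 0.0800 on 211725_s_at. The share of all probe sets called in that fit was 0.835%, and 0 of the 32 members were called. At an unadjusted p under 0.05 that fit gave 6 of 32 members (11.3% of all), against 4 without the block. The labels do not state such pairs, and the pairing was chosen from the same arrays. The p values of that fit are therefore not independent tests. Over all alternatives the adjusted p of 211725_s_at against the parental line ranged from 0.0800 to 0.905, and that of 227143_s_at from 0.156 to 1. In WT-actin against parental cells BID gave 0.15 on 227143_s_at (SE 0.16) and -0.091 on 211725_s_at (SE 0.16).

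BIK, a BH3-only protein of the endoplasmic reticulum, was read by 1 probe set, with 371, 329 and 371 in parental, 189, 258 and 497 in WT-actin and 451, 341 and 376 in NLS-actin arrays. Replicates 1 and 2 of WT-actin cells lay below all other arrays, and replicate 3 above all of them. BIK stood at a log2 fold change of -0.30 (SE 0.30) in WT-actin against parental cells and 0.42 (SE 0.30, adjusted p = 0.823) in NLS-actin against WT-actin cells. Without WT-actin replicate 3 these were -0.69 and 0.81.

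BCL2L11 encodes BIM, which binds all guardians and exists in several splice forms, and its 7 probe sets did not move as 1. The brightest, 225606_at, read 629, 580 and 438 in parental, 752, 563 and 470 in WT-actin and 588, 776 and 439 in NLS-actin arrays, with a log2 fold change of 0.11 (SE 0.25) in NLS-actin against parental cells. The other 6 were negative in this comparison, from -0.12 to -0.74. On 1553096_s_at the signal was 126, 120 and 123 in parental, 141, 120 and 95.5 in WT-actin and 71.4, 55.6 and 101 in NLS-actin arrays. Its NLS-actin arrays lay below the parental ones, with a log2 fold change of -0.74 (SE 0.31, adjusted p = 0.751, and -0.55 without the 3 arrays that stand apart), and overlapped with WT-actin cells. On 222343_at they also lay below the parental arrays, at -0.46 (SE 0.27, adjusted p = 0.843). Which splice form a probe set reads was not worked out here.

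PMAIP1 encodes NOXA, which pairs mainly with MCL1 and is a target of p53. On 204286_s_at it read 2543, 1871 and 3023 in parental, 3050, 3283 and 3482 in WT-actin and 2409, 1805 and 2819 in NLS-actin arrays. All WT-actin arrays lay above all arrays of both other lines. PMAIP1 stood at a log2 fold change of 0.43 against the parental line (SE 0.20, adjusted p = 0.833), and NLS-actin cells stood at -0.50 against WT-actin cells (SE 0.20, adjusted p = 0.549) and at -0.077 against the parental line. The second probe set, 204285_s_at, did not show the higher WT-actin values, with -0.17 (SE 0.25) against the parental line. Without the 3 arrays that stand apart the value of 204286_s_at in WT-actin cells was 0.29. On the second probe set NLS-actin cells stood at -0.42 (SE 0.25, adjusted p = 0.843) against the parental line.

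**Figure D5:**
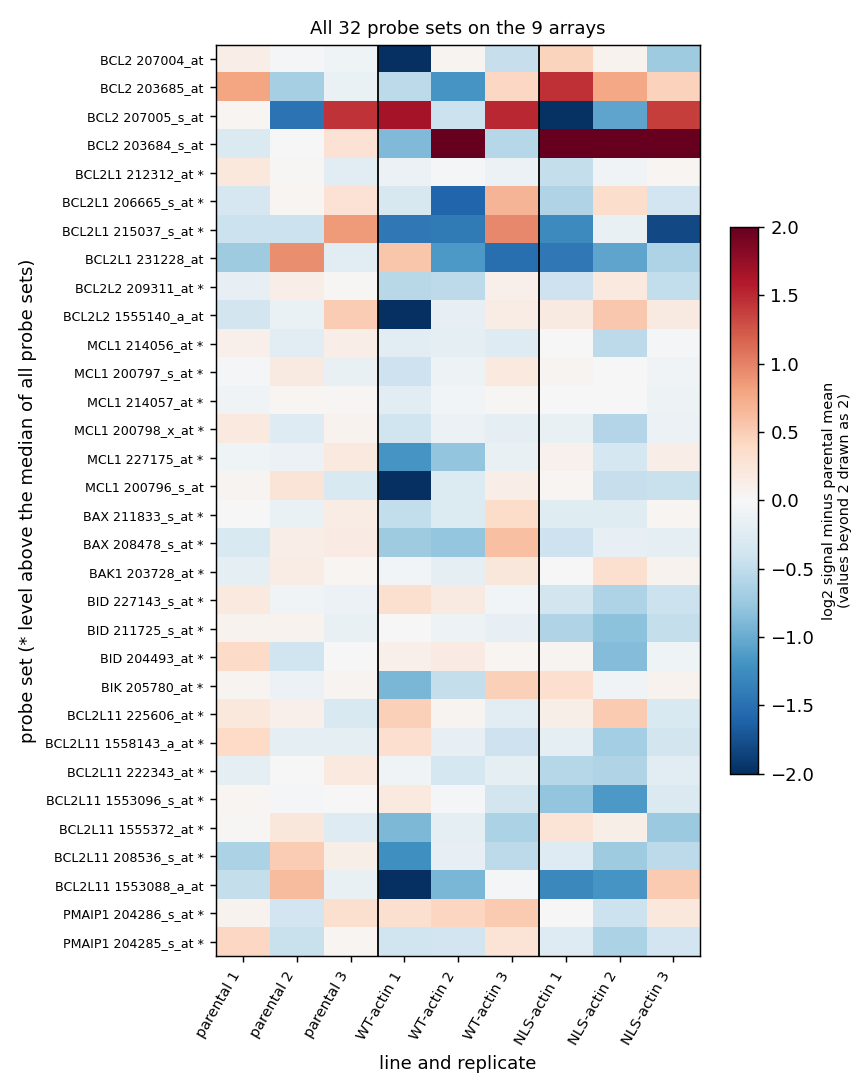
Log2 signal minus the parental mean (colour; values beyond 2 are drawn as 2) of the 32 probe sets (rows) on the 9 arrays (columns); an asterisk marks a level above the median of all probe sets. Most of the strongest colours sit in rows without an asterisk, and among them those of BCL2, and 26 of the 32 rows have a negative mean difference in NLS-actin against parental cells.

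Counting probe sets rather than genes, 26 of 32 were negative in NLS-actin against parental cells and 26 of 32 in WT-actin against parental cells, while 55.6% and 59.9% of all probe sets were. In NLS-actin against WT-actin cells 14 of 32 were negative (47.0% of all). Probe sets of 1 gene read RNA of that gene, in some cases perhaps different splice forms, so they are not independent. The arrays of the parental line enter both of the first comparisons. Groups of arrays that did not overlap occurred in 5 of 32 probe sets in NLS-actin against parental cells (13.2% of all), namely BCL2 203684_s_at on the higher side and BID 227143_s_at, BID 211725_s_at, BCL2L11 1553096_s_at and BCL2L11 222343_at on the lower side. They occurred in 2 of 32 in WT-actin against parental cells (12.3% of all), PMAIP1 204286_s_at and MCL1 227175_at. They occurred in 5 of 32 in NLS-actin against WT-actin cells (12.1% of all), with BCL2 203685_at and BCL2L2 1555140_a_at higher and the same BID pair and PMAIP1 204286_s_at lower. Each NLS-actin array lay below the parental array of its number in 14 of 32 probe sets (18.9% of all): the 3 of BID, 3 of MCL1, 3 of BCL2L11, both of BAX, both of PMAIP1 and 1 of BCL2L1. Each lay above it in 4 of 32 (14.1% of all), a pair of BCL2 and those of BAK1 and BIK. The labels do not state that same-numbered arrays form pairs.

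A single WT-actin array lay far from the other WT-actin arrays in several members. WT-actin replicate 3 was the highest of its line in 5 of the 10 genes on the brightest probe sets and the lowest in 4 (32.4% and 38.3% of all genes), with a median deviation of 0.16 on the log2 scale from its line's mean, against -0.024 over all genes. It also had the lowest ACTB ratio of all arrays, 1.93, and the part of this ratio in these values was not tested. Without it, 2 member probe sets passed a limma p under 0.05 before adjustment with more than a 2-fold difference in WT-actin against parental cells (4.04% of all), where none did with it (3.20% of all).

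Genes around the family were counted from lists of related proteins, each gene on its brightest probe set, and 0 genes of these lists passed an adjusted p under 0.05 on any probe set in the limma fit of all 9 arrays without the replicate block. At an unadjusted p under 0.05 in NLS-actin against parental cells, where 6.54% of all genes lay, there were 2 of 15 other family members and BH3-like proteins, 0 of 13 genes of the apoptosome, caspases and their inhibitors, 2 of 21 regulators and partners and 1 of 15 p53 targets. The medians of these lists were 0.15, 0.16, 0.069 and 0.067, beside -0.0050 over all genes. They were also positive in WT-actin against parental cells, at 0.081, 0.13, 0.041 and 0.067, beside -0.060 over all genes. In WT-actin against parental cells (6.64% of all genes) the counts were 0, 0, 4 and 1, and in NLS-actin against WT-actin cells (9.64%) they were 2, 1, 3 and 1. The p53 targets had a median of -0.18 in the last comparison, with 12 of 15 negative, against 0.033 over all genes.

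BNIP3, a mitochondrial protein of hypoxia and mitophagy with a BH3-like motif, was read by more than 1 probe set. On 201849_at it read 1139, 444 and 887 in parental, 633, 966 and 1074 in WT-actin and 409, 194 and 504 in NLS-actin arrays. NLS-actin arrays lay below all WT-actin arrays, and replicate 3 alone lay above a parental array, replicate 2, which stands apart. The log2 fold change was -1.16 against the parental line (SE 0.38, adjusted p = 0.572) and -1.35 against WT-actin cells (SE 0.38, adjusted p = 0.2497). In the fit of parental and NLS-actin arrays with the replicate block this probe set stood at -1.16 with an adjusted p of 0.00785 in limma. That fit called 0.835% of all probe sets. The labels do not state such pairs, and the pairing was chosen from the same arrays, so this p is not an independent test. On 201848_s_at the NLS-actin arrays lay below all others, at -1.04 against the parental line (adjusted p = 0.531, and 0.111 with the block).

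BCL2L10, a guardian best known from oocytes, read 89.9, 104 and 43.9 in parental, 103, 44.5 and 106 in WT-actin and 136, 240 and 102 in NLS-actin arrays, a log2 fold change of 1.01 against the parental line (SE 0.46, adjusted p = 0.778). The lines overlapped. BCL2L15, at the 36.9 percentile, stood at 1.84 in NLS-actin against WT-actin cells (SE 0.83, adjusted p = 0.624). Its other probe sets, 236083_at and 242013_at, gave 0.25 and -0.093 in this comparison. Of the genes downstream, DIABLO, a mitochondrial protein that blocks inhibitors of apoptosis, had all NLS-actin arrays above the parental ones at 0.21 (SE 0.15, adjusted p = 0.872). HTRA2, a mitochondrial protease, stood at -0.28 (SE 0.18, adjusted p = 0.861) in NLS-actin against parental cells, and at -0.057 on 203089_s_at.

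Among regulators, TMBIM6 (BAX inhibitor 1, a protein of the endoplasmic reticulum) read 6097, 7540 and 8444 in parental, 9317, 9540 and 8767 in WT-actin and 9456, 9156 and 10175 in NLS-actin arrays. Both actin lines lay above all parental arrays, at 0.39 (SE 0.14, adjusted p = 0.666) and 0.34 (SE 0.14, adjusted p = 0.817). Its second probe set, 200803_s_at, gave 0.36 in NLS-actin and -0.10 in WT-actin cells. E2F1, a transcription factor of the cell cycle that can activate BH3-only genes, stood at -0.50 (SE 0.23, adjusted p = 0.779) in NLS-actin and -0.43 (SE 0.23, adjusted p = 0.834) in WT-actin cells. TRIM17, a ubiquitin ligase for MCL1, stood at 2.59 in WT-actin against parental cells (SE 0.80, adjusted p = 0.610), from dim signals of 1.67 to 5.61 in parental and 16.9 to 28.3 in WT-actin arrays. TP73, a relative of p53, stood at 1.10 in NLS-actin against WT-actin cells (SE 0.51, adjusted p = 0.632). Its other probe sets, 1554379_a_at and 220804_s_at, gave 0.73 and 2.43 in this comparison. On 1554379_a_at the lines overlapped. The probe set 220804_s_at was dim, at the 19.2 percentile, with 0.798 to 8.45 in WT-actin and 10.1 to 14.5 in NLS-actin arrays. Of the p53 targets, GADD45A had its NLS-actin arrays below the parental ones at -0.53 (SE 0.24, adjusted p = 0.767), and SESN2 stood at 0.56 (SE 0.27, adjusted p = 0.810).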

How the data were processed

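RNA of 3 HaCaT lines was hybridized to 9 Affymetrix arrays (3 of each line). What the authors deposited are MAS5 signals, linear intensities scaled per array; the methods give no version of MAS5. MAS5 subtracts mismatch probes, so low signals are noisy on a log2 scale. No detection calls or array images were used here. Signals were converted to log2 without offset or filter, and the 62 control probe sets were left out. Of 54613 probe sets, 41091 had 1 gene symbol, updated through Entrez identifiers for 41037. A gene was represented by its probe set of highest mean signal. All 32 probe sets of the members were counted, but values are printed for only part of them. For related genes further probe sets are given in some cases.

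The 3 comparisons used limma 3.58.1 (R 4.3.3), each line having its own mean and the variance following the level. The Benjamini-Hochberg adjustment ran over all 54613 probe sets, with a threshold of 0.05. With 3 arrays a line, the smallest exact permutation p is 0.1. The fit was tested on simulated data. Replicate numbers in the labels were taken as pairs for NLS-actin and parental arrays, since same-numbered arrays had residual correlations of 0.150, 0.662 and 0.209. With WT-actin arrays they ranged from -0.443 to 0.425. The value of 0.662 is that of replicate 2, whose arrays stand apart in both lines. The labels do not state such pairs, so the pairing was chosen from these same arrays. The members, the lists, the tests and the 22 alternatives were chosen with earlier results of these data known. Named are all members, and of the related lists the 2 genes with the smallest p in NLS-actin against parental cells, those at an adjusted p under 0.05, and those at p under 0.05 with a fold above 2. Promoters were searched on both strands for 6 motifs. Python 3.11.15, pandas 2.3.3, SciPy 1.17.1 and matplotlib 3.10.9 were used for tables and figures.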

Additional observations from a re-analysis of the deposited data

How the results depend on the processing

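The number of arrays and the low signal of BCL2 limit these results. No member was called at an adjusted p under 0.05 under any of 22 settings. The replicate block changed no call of a member; within the lines compared it left 0 probe sets past p under 0.05 and a 2-fold change in NLS-actin against WT-actin cells, where the count had been 1. That count was also 0 with quantile normalization, the filter on dim probe sets, 1 probe set per gene, Tukey's test and 3 arrays left out, and 2 without the intensity trend. Against the parental line NLS-actin cells had 1, and 0 with the filter, 1 probe set per gene and Tukey's test, and 2 without the 3 arrays. Leaving out 1 array gave 0 to 2 in both comparisons with the parental line and 0 to 1 between the actin lines. No share over all probe sets is given here for the counts under these alternatives, so they describe the members only. The filter on dim probe sets left no BCL2 value. The cause of these differences was not tested.

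The family median moved in NLS-actin against parental cells to -0.021 with the ACTB ratio, in WT-actin against parental cells to -0.0070 with quantile normalization and -0.041 without 3 arrays, and in NLS-actin against WT-actin cells to -0.076 without 3 arrays. With 1 array left out the medians of the last pair of comparisons were -0.16 to -0.036 and -0.048 to 0.12. In NLS-actin against parental cells the direction reversed for BCL2 (0.051 with quantile normalization, 0.32 with the ACTB ratio, 0.79 over all its probe sets), BCL2L11 (-0.046 without 3 arrays, -0.068 with the ratio, -0.40 over all probe sets), BAX (0.026 with the ratio), PMAIP1 (0.038 with the ratio) and BCL2L2 (0.031 over all probe sets). In WT-actin against parental cells it reversed for BCL2L1 (0.0097 with quantile normalization), BAK1 (0.15 with quantile normalization, 0.098 without 3 arrays), BCL2L11 (-0.030 without 3 arrays, -0.42 over all probe sets) and BCL2 (0.031 over all probe sets). In NLS-actin against WT-actin cells it reversed for BCL2L11 (-0.018 with quantile normalization, -0.017 without 3 arrays, -0.099 with the ratio), BCL2L2 (-0.25 without 3 arrays) and BAX (0.085 with the ratio, 0.014 over all probe sets).

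Leaving out 1 array reversed the following values. In NLS-actin against parental cells they were BCL2 (-0.32 to 0.26), BCL2L11 (-0.094 to 0.32) and PMAIP1 (-0.27 to 0.0999). In WT-actin against parental cells they were BAK1 (-0.11 to 0.088), BAX (-0.38 to 0.050), BCL2L1 (-0.21 to 0.0085), BCL2L11 (-0.077 to 0.26) and BIK (-0.69 to 0.0053). In NLS-actin against WT-actin cells they were BAX (-0.20 to 0.23), BCL2L1 (-0.18 to 0.076), BCL2L11 (-0.20 to 0.21), BCL2L2 (-0.13 to 0.31) and MCL1 (-0.068 to 0.20).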

Other observations

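The genes whose pattern over the 9 arrays was most like that of BCL2 on 207004_at were USF2 (Pearson correlation of log2 signal 0.943), AFG3L1P (0.940), SLC27A4 (0.927), LCP1 (0.920) and NRF1 (0.918), out of 11979 genes above the median level. These correlations are a description over 9 arrays of 3 lines that share the low value of WT-actin replicate 1, and no test was made of them. The mean signals of USF2 were 661 in parental, 593 in WT-actin and 658 in NLS-actin cells, and those of LCP1, an actin-bundling protein, were 117, 78.0 and 124.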
